A study of Homo sapiens with 12 samples.

Results

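RMRP, RPPH1, SNAR-G1, BCYRN1 and TERC are 5 non-coding RNAs that were taken by symbol from a table of 26210 gene rows, measured by total RNA sequencing in 12 libraries of lymphoma and leukaemia cell lines. All 5 symbols were found, and all 5 passed a filter that kept 14679 rows with at least 1 FPKM (fragments scaled to transcript length and to the mapped fragments of the library) in at least 2 libraries. The RNAs were chosen by their measured FPKM values over these 12 libraries, for a high level or for their pattern, so their levels are described here without a test. KM-H2, L1236 and L428 are 3 cell lines of classical Hodgkin lymphoma (cHL), Namalwa is a Burkitt's lymphoma line and Reh a B-cell precursor leukaemia line. A sixth group, Reh_PMA, was Reh exposed to phorbol myristate acetate (PMA), an activator of protein kinase C, at 2 ng/ml; the length of exposure in these libraries is not given in the sources used here. Each group had 2 libraries, called library 0 and library 1 after the suffixes of the table, and nothing states that these came from separate cultures, so their spread may be technical. The Hodgkin lines grew in IMDM and the control lines in RPMI, so the kind of line and the medium cannot be told apart.

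These RNAs act in different machines. RMRP is the RNA of RNase MRP, which cleaves precursor ribosomal RNA in the nucleolus. RPPH1, also called H1 RNA, is the catalytic RNA of RNase P, which trims the 5′ leader from precursor transfer RNA, and both RNAs sit in particles that share most of their proteins. Both are made by RNA polymerase III (Pol III) from promoters that lie upstream of the transcribed part. BCYRN1, or BC200, is a primate Pol III transcript that grew out of an Alu element, has its promoter inside the transcribed part and is known for its role in repressing translation in neurons. SNAR-G1 belongs to the snaR family, short Pol III transcripts that bind proteins of double-stranded RNA. TERC is the template RNA of telomerase and carries a box H/ACA domain; in human cells it is made by RNA polymerase II, so the label Pol III does not apply to it.

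The sequences of RMRP and TERC are shown because they carry features on which these RNAs are told apart, the end of a Pol III transcript and a telomere template. They were read from the GRCh37 genome, the same assembly as the hg19 build of the table, with GENCODE v44lift37 gene bounds, in which 3 of the 5 symbols were matched.
RMRP, 264 bases and the 20 bases after them (chr9:35657731-35658014, minus strand, ribozyme gene, a single exon outside other genes; capitals mark a run of T at positions 267 to 272): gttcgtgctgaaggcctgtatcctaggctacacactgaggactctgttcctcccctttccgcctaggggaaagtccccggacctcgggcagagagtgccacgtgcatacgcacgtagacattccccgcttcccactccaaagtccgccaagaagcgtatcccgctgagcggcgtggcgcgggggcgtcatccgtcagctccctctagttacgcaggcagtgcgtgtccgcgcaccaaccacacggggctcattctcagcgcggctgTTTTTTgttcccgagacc
TERC, first 120 bases (chr3:169482729-169482848, minus strand, long non-coding RNA gene; capitals mark the telomere template at positions 46 to 56): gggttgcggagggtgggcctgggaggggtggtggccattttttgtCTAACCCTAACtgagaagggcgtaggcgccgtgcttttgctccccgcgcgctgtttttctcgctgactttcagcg
Positions count from 1 at the 5′ end of each RNA. The BCYRN1 gene lies in an intron of EPCAM-DT, a long non-coding RNA gene on the opposite strand, and overlaps none of its exons. CTAACCCTAAC, the complement of almost 2 telomere repeats, was found on either strand in the first 200 bases of 10 of 243986 annotated transcripts (0.0041%). A run of TTTT was found on the RNA strand, in a window of 24 bases over the gene end, at 532 of 2575 genes of the chromosome that holds RMRP (20.7%). These matches are descriptions of letters. RPPH1, SNAR-G1 and BCYRN1 are given by name only.

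Most of the markers fixed for the labelled cell types were present, with exceptions. TNFRSF8 (CD30), the surface marker of Hodgkin cells, averaged 24.2 FPKM in KM-H2, 24.8 FPKM in L1236 and 51.2 FPKM in L428, against at most 0.499 FPKM in the other groups. CCL22, a chemokine of Hodgkin cells, was at 0 in KM-H2 and averaged 0.346 FPKM in L428. Of the same list, IRF4 averaged 26.4 FPKM in Namalwa, and FSCN1 14.9 FPKM in Reh and 27.9 FPKM in Reh_PMA. CD79A, a part of the B-cell receptor, averaged 228 FPKM in Namalwa and 382 FPKM in Reh, against at most 1.27 FPKM in the Hodgkin lines. Other B-cell genes split less cleanly. PAX5 averaged 26.8 FPKM in L1236, above Reh_PMA (14.3 FPKM), and MS4A1 averaged 0.195 FPKM in Reh. Of 7 listed B-cell genes, 7 averaged over 1 FPKM in Namalwa, 6 in Reh, 4 in KM-H2, 1 in L1236 and 1 in L428. Of the precursor B-cell genes, DNTT averaged 95.5 FPKM in Reh and was at 0 in Namalwa, whereas VPREB1 was at 0 in Reh and averaged 9.63 FPKM in Namalwa. The immediate early gene EGR1 averaged 0.0862 FPKM in Reh and 69.2 FPKM after PMA. CD3D, a T-cell gene, was at 17.99 FPKM in KM-H2. The content of other small RNAs differed between the libraries of a line, and its part in the levels below was not tested. Box C/D RNAs, which guide ribose methylation of ribosomal RNA, made up 1.09 to 1.34% of the summed FPKM in library 0 of the 3 Hodgkin lines and 12.4 to 25.1% in library 1. Their share was 1.43 to 2.19% in Namalwa and Reh and 6.40 to 8.13% after PMA. Of 253 box C/D rows, 6 to 7 were above 0 in library 0 of the Hodgkin lines and 44 to 54 in library 1. Values are therefore given per library throughout.

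RMRP and RPPH1 were among the 4 highest rows of all 12 libraries. RMRP ranked between place 1 and place 3 of all rows in each library and RPPH1 between place 1 and place 4. In library 1 of the Hodgkin lines, guide RNAs ranked among them. SNORD95, a box C/D RNA, stood at 132676 FPKM in library 1 of L428, above RMRP, and at 45930.1 and 50069.1 FPKM in library 1 of KM-H2 and L1236, above RPPH1. SNORA73B, a box H/ACA RNA, was also above RPPH1 in library 1 of KM-H2 (47518 FPKM) and L1236 (48910 FPKM). Together RMRP and RPPH1 held 9.96 to 21.1% of the summed FPKM. FPKM is a value per length, yet for RNAs about as short as a sequenced fragment it depends on the effective length that the software assigns, so levels of short and long RNAs compare only loosely.

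The libraries of RMRP overlapped between most groups. RMRP stood at 40364.5 and 55121 FPKM in library 0 and library 1 of KM-H2, at 49222 and 65029 FPKM in L1236 and at 49372 and 86312 FPKM in L428. In the other groups it stood at 51941 and 109326 FPKM in Namalwa, 51338 and 84734 FPKM in Reh, and 78752 and 78140.2 FPKM in Reh_PMA. The highest library of all, Namalwa library 1, was 2.71-fold above the lowest, KM-H2 library 0. By group mean the order was Namalwa (80634 ± 40577 FPKM, SD, n = 2), Reh_PMA (78446 ± 432 FPKM), Reh (68036 ± 23615 FPKM), L428 (67842 ± 26121 FPKM), L1236 (57126 ± 11177 FPKM) and KM-H2 (47743 ± 10434 FPKM). All 5 pairs of neighbours in this order overlapped in their libraries, while both libraries of Reh_PMA lay above those of L1236 and KM-H2. With 2 libraries a group, separation is common. Among all rows past the filter, both libraries of Reh_PMA lay above those of Reh in 31.8% and below in 40.1%. No share over all rows was counted for neighbours in an order of means, here or for the RNAs below.

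RPPH1 was lowest by group mean in KM-H2 and L1236. RPPH1 stood at 28049.5 and 42245 FPKM in library 0 and library 1 of KM-H2, at 28526 and 48189 FPKM in L1236 and at 68781 and 134089 FPKM in L428. In the other groups it stood at 41726 and 92468 FPKM in Namalwa, 50563 and 73744.5 FPKM in Reh, and 87393.5 and 68787 FPKM in Reh_PMA. The libraries of L428, Reh and Reh_PMA lay above the 4 libraries of KM-H2 and L1236, those of L428 overlapped Namalwa, Reh and Reh_PMA, and the range over all libraries was 4.78-fold. L428 led the order (101435 ± 46180 FPKM, SD, n = 2), followed by Reh_PMA (78090.1 ± 13157 FPKM), Namalwa (67097 ± 35880.2 FPKM), Reh (62154 ± 16392 FPKM), L1236 (38358 ± 13904 FPKM) and KM-H2 (35147 ± 10038 FPKM). Only Reh and L1236 did not overlap among the neighbours of this order.

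**Figure D1:**
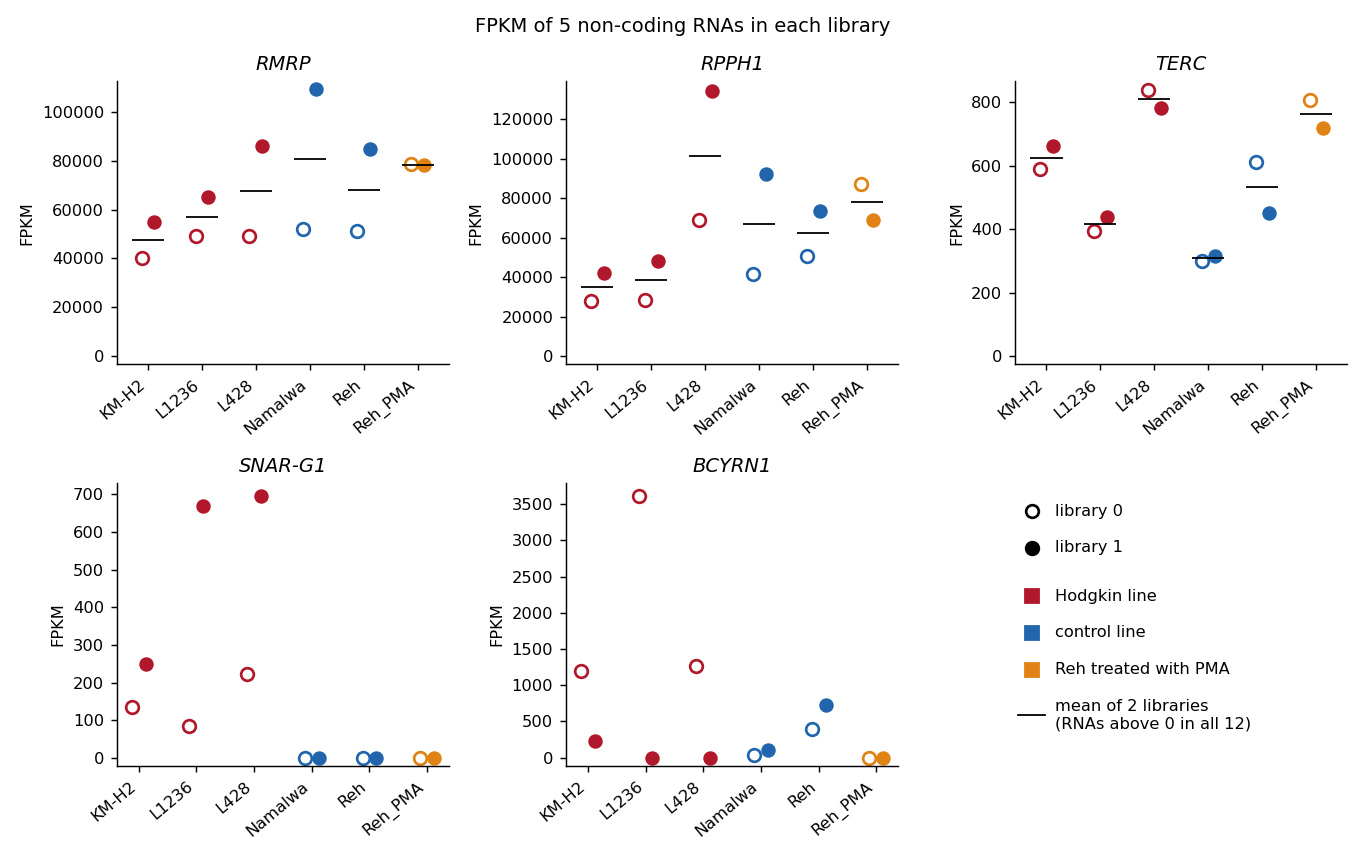
FPKM (linear axes) of RMRP, RPPH1, TERC, SNAR-G1 and BCYRN1 in each of the 12 libraries, with open points for library 0, filled points for library 1 and black bars for the mean of 2 libraries of the RNAs that were above 0 throughout. RMRP and RPPH1 were higher in library 1 in 5 of 6 groups, TERC was close between the libraries of a line as deposited, SNAR-G1 was above 0 in the 6 Hodgkin libraries alone, and BCYRN1 was listed at 0 in 4 libraries.

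The ratio of RPPH1 to RMRP varied less between libraries of a line than either RNA in the median, and it does not depend on a factor applied to a whole library. The ratio was 0.695 and 0.766 in library 0 and library 1 of KM-H2, 0.580 and 0.741 in L1236, and 1.39 and 1.55 in L428. It was 0.803 and 0.846 in Namalwa, 0.985 and 0.870 in Reh, and 1.11 and 0.880 in Reh_PMA. The ratio was thus higher in both libraries of L428, at 1.39 to 1.55, than in the other 10 libraries, between 0.580 and 1.11. Being a ratio of FPKM values of short RNAs, it does not give a ratio of molecules. The median absolute log2 difference between the libraries of a group was 0.59 for RMRP, 0.67 for RPPH1 and 0.17 for their ratio. Over the 12 libraries the log2 levels of both RNAs were correlated with a Pearson r of 0.83, and over the 6 group means with 0.78, values that share depth and small RNA content and are given as a description.

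**Figure D2:**
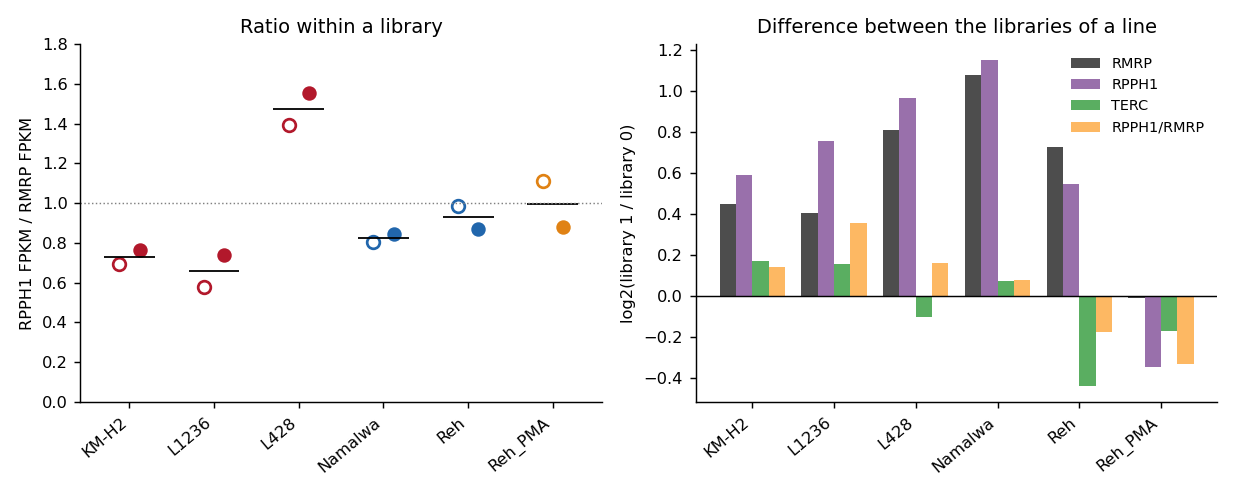
Left, RPPH1 FPKM divided by RMRP FPKM in each library (open library 0, filled library 1, bar their mean, dotted line at 1). Right, log2 of library 1 over library 0 for RMRP, RPPH1, TERC and the ratio of RPPH1 to RMRP in each group. The L428 libraries sit at 1.39 and 1.55, above the 10 others, and the bars of the ratio are shorter than those of RMRP and RPPH1 in most groups.

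Library 1 was higher in 5 of 6 groups for both RMRP and RPPH1. The fold of library 1 over library 0 for RMRP was 1.37 in KM-H2, 1.32 in L1236, 1.75 in L428, 2.10 in Namalwa, 1.65 in Reh and 0.992 in Reh_PMA. For RPPH1 it was 1.51, 1.69, 1.95, 2.22, 1.46 and 0.787 in the same groups. As a share of the summed FPKM, RMRP was 6.12 and 5.64% in the libraries of KM-H2 and 7.40 and 7.34% in L1236, so that its direction turned in both lines, as it did in Reh_PMA, when every library was brought to the same sum, while the share still rose from library 0 to library 1 in L428 (5.85 and 7.67%), Namalwa (7.74 and 10.98%) and Reh (6.94 and 9.80%). For RPPH1 the share was almost level in KM-H2 (4.25 and 4.32%), and at the same sum its log2 difference was 0.023 in KM-H2, 0.34 in L1236, 0.55 in L428, 0.58 in Namalwa, 0.32 in Reh and -0.22 in Reh_PMA. On the log2(FPKM + 1) scale, the RNAs with over 2-fold more in library 1 were SNAR-G1 in L1236 and in L428, and RMRP, RPPH1 and BCYRN1 in Namalwa. At the same sum RMRP (0.50) and RPPH1 (0.58) were no longer past 2-fold in Namalwa. Nor was BCYRN1, at 0.00603 and 0.01115% of the summed FPKM in library 0 and library 1. Among all 14679 rows, 2.16% in L1236, 3.77% in L428 and 1.02% in Namalwa were over 2-fold higher in library 1. The share was 5.15% in KM-H2, 0.422% in Reh and 1.46% in Reh_PMA, where none of the 5 RNAs was past 2-fold in this direction. The opposite difference was held by BCYRN1 in the 3 Hodgkin lines, against 5.51, 4.03 and 5.46% of all rows in KM-H2, L1236 and L428. None of the 5 RNAs was past 2-fold in this direction in Namalwa (2.64% of all rows), Reh (0.736%) or Reh_PMA (1.26%).

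Box H/ACA RNAs had a higher median in library 1 of every group, whereas box C/D RNAs had one in the 3 Hodgkin lines alone. The filter kept 58 of 253 box C/D rows. Rows such as SNORD104, SNORD27 and SNORD80 passed it through library 1 of the Hodgkin lines alone. The box C/D counts are therefore partly set by the filter and are no like comparison with all rows. Of 58 box C/D rows past the filter, 37 were over 2-fold higher in library 1 of KM-H2, 39 in L1236, 41 in L428, 4 in Namalwa, 0 in Reh and 17 in Reh_PMA, beside 5.15, 2.16, 3.77, 1.02, 0.422 and 1.46% of all rows. In the opposite direction 1 box C/D row was past 2-fold in Reh, 10 were in Reh_PMA and 0 in the other groups, beside 0.736% of all rows in Reh and 1.26% in Reh_PMA. Of 88 box H/ACA rows, which include guides of pseudouridylation, 54 were over 2-fold higher in library 1 of KM-H2, 62 in L1236, 42 in L428, 36 in Namalwa, 24 in Reh and 29 in Reh_PMA, and 3, 2, 1, 10, 13 and 5 were over 2-fold higher in library 0 of the same groups, beside 5.51, 4.03, 5.46, 2.64, 0.736 and 1.26% of all rows. The median log2 difference of these rows was 1.68, 1.95, 0.94, 0.74, 0.24 and 0.58, whereas the median of all rows was at or within 0.01 of 0 as deposited. At the same sum the box H/ACA median was 1.13, 1.63, 0.53, 0.17, 0.021 and 0.70. RNU6ATAC, a Pol III small nuclear RNA of the minor spliceosome, was 3.90, 12.9, 2.32, 2.94 and 2.90-fold higher in library 1 of the 5 untreated lines and 0.690-fold in Reh_PMA. The authors name Illumina HiSeq and NextSeq instruments for the sequencing. The parts of library preparation and of the instrument in these differences were not tested.

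**Figure D3:**
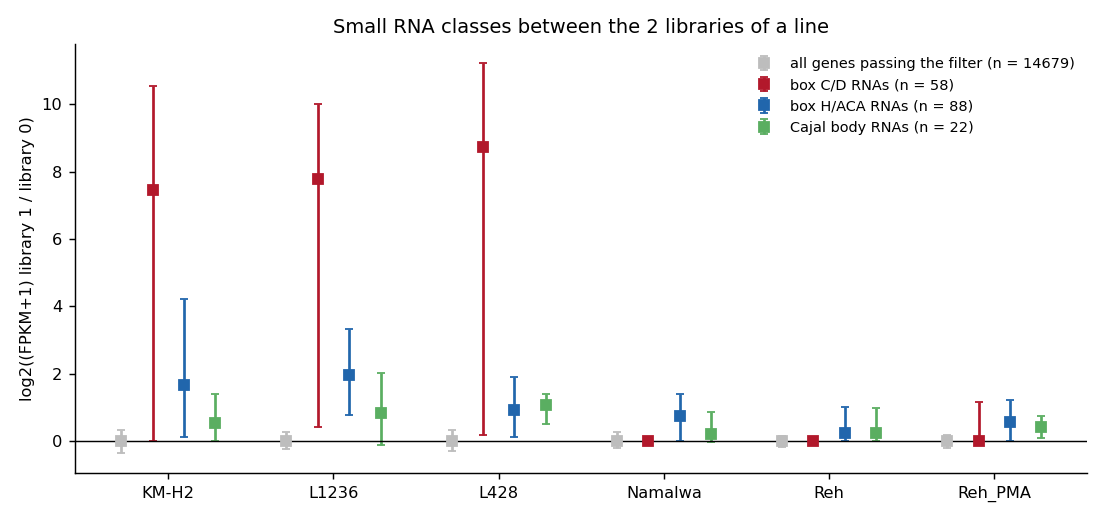
Median log2 difference (FPKM + 1) of library 1 against library 0 in each group for all rows past the filter and for 3 classes of small RNA, with bars from the first to the third quartile. The median of the 58 box C/D rows past the filter is 7.45 to 8.74 in the 3 Hodgkin lines and 0 in Namalwa, Reh and Reh_PMA. Rows such as SNORD104 passed the filter through library 1 of the Hodgkin lines alone, so the filter partly sets these values.

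As deposited, TERC had a smaller median difference between the libraries of a group than RMRP and RPPH1, but this order depended on the scale. TERC stood at 589 and 662 FPKM in library 0 and library 1 of KM-H2, 393 and 438 FPKM in L1236, and 839 and 782 FPKM in L428. It stood at 301 and 316 FPKM in Namalwa, 611 and 451 FPKM in Reh, and 808 and 717 FPKM in Reh_PMA. Its median absolute log2 difference between the libraries of a group was 0.16, against 0.59 for RMRP and 0.67 for RPPH1, and library 1 was higher in 3 of 6 groups. In Reh_PMA the log2 difference of TERC (-0.17) was the larger one beside RMRP (-0.011). With every library brought to the same sum, the median was 0.45 for TERC, with library 1 higher in 0 of 6 groups, against 0.25 for RMRP and 0.33 for RPPH1. After quantile normalization it was 0.25 for TERC and 0.15 for RPPH1. The order of the means was L428 (811 ± 40.6 FPKM, SD, n = 2), Reh_PMA (762 ± 63.8 FPKM), KM-H2 (625.2 ± 51.6 FPKM), Reh (531 ± 113 FPKM), L1236 (416 ± 31.9 FPKM) and Namalwa (308 ± 10.49 FPKM). Of the 5 pairs of neighbours, L428 with Reh_PMA and KM-H2 with Reh overlapped and the other 3 did not. The share of all rows with such separation was not counted, so this is no trait particular to TERC. TERC ranked between place 124 and place 338 of a library.

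SNAR-G1 was above 0 in the Hodgkin libraries alone. SNAR-G1 stood at 134 and 249 FPKM in library 0 and library 1 of KM-H2, 84.0 and 669 FPKM in L1236, and 222 and 696 FPKM in L428. It was listed at 0 in all 6 libraries of Namalwa, Reh and Reh_PMA. The Hodgkin lines overlapped one another, and library 1 was higher in all 3, by 1.86-fold in KM-H2, 7.96-fold in L1236 and 3.14-fold in L428. Such a pattern, above 0 in the 6 Hodgkin libraries and at 0 in the other 6, was shown by 144 of 26210 rows (0.549%), and SNAR-G1 had the highest Hodgkin mean of them. In this file a 0 does not show that an RNA is absent, since all 24 rows of U6 and Y RNAs, which every cell uses, were at 0 in all libraries, and so no fold is given against it.

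The other snaR rows were above 0 in few libraries, all of Hodgkin lines. Of 19 SNAR rows, 5 were above 0 in any library, and none of the 19 was above 0 outside the Hodgkin lines. The share of all rows above 0 in Hodgkin libraries alone was not counted. Apart from SNAR-F in library 0 of L428, the values of these other rows lay in library 1. There 44 to 54 box C/D rows were above 0, against 6 to 7 in library 0. VTRNA1-2, VTRNA1-3 and VTRNA2-1 were likewise above 0 in library 1 of Hodgkin lines alone. SNAR-G2 stood at 61.3 FPKM in KM-H2, 281 FPKM in L1236 and 95.4 FPKM in L428, each time in library 1, and at 0 in library 0. SNAR-F stood at 271 FPKM in library 1 of KM-H2 and at 110 and 933 FPKM in the libraries of L428, and was listed at 0 in L1236. SNAR-C4 (44.3 FPKM, L428 library 1) and SNAR-D (8.25 FPKM, L1236 library 1) were each seen once. The snaR copies are nearly identical, so the counting could place reads of one copy on another and the split between rows is uncertain. The other rows are therefore not separate from the values of SNAR-G1.

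In the order of RefSeq genes SNAR-G1 is flanked by CGB1, and SNAR-G2 by CGB2, genes of the cluster that encodes the beta chain of the placental hormone chorionic gonadotrophin, which were looked at after the values of SNAR-G1 were seen. CGB1 stood at 1.42 and 1.18 FPKM in the libraries of KM-H2, 1.18 and 2.03 FPKM in L1236, and 2.33 and 3.08 FPKM in L428. CGB2 stood at 1.89 and 3.55 FPKM in KM-H2, 0.591 and 1.35 FPKM in L1236, and 3.11 and 4.02 FPKM in L428. Both were at 0 in the other 6 libraries, as SNAR-G1 was. Other rows of the cluster were low. CGB stood at 0.443 and 0.228 FPKM in L1236, at 0.389 FPKM in library 0 of L428 and, outside the Hodgkin lines, at 0.313 FPKM in library 1 of Namalwa, and CGB5 reached 0.180 FPKM in 1 library. CGB1 and CGB2 are near-identical paralogues, so their split is uncertain too.

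**Figure D4:**
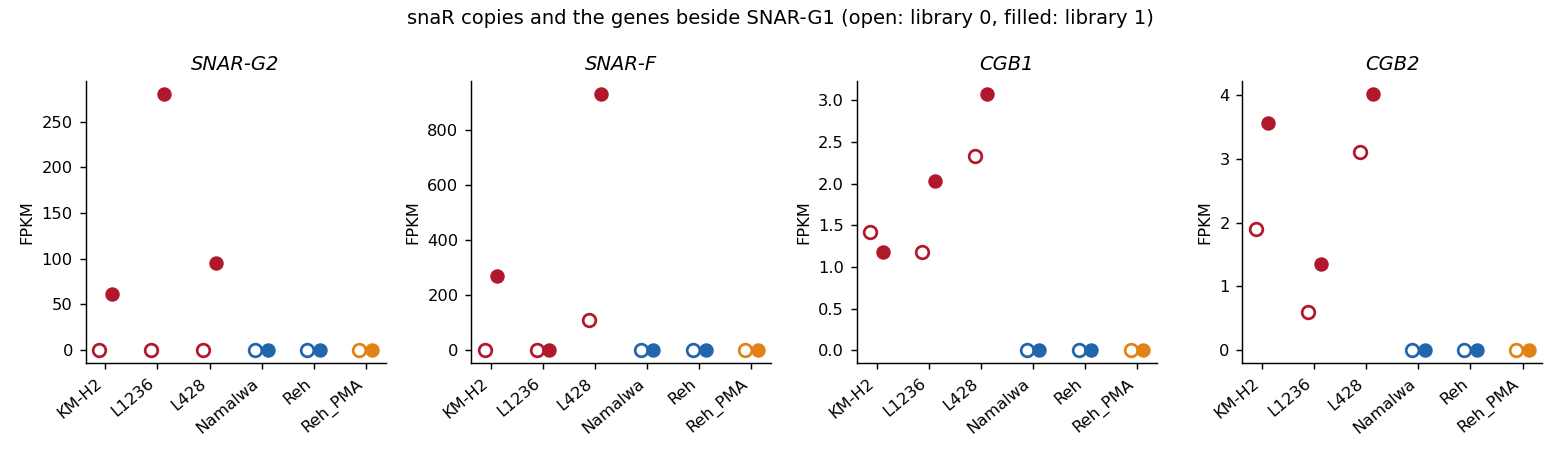
FPKM (linear axes, a scale for each panel) of SNAR-G2, SNAR-F and the neighbouring genes CGB1 and CGB2 in each library, open for library 0 and filled for library 1, red for Hodgkin lines, blue for control lines and orange for Reh_PMA. All values above 0 are in Hodgkin libraries, and SNAR-G2 reaches 281 FPKM in library 1 of L1236 while library 0 is at 0 in all 3 lines.

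BCYRN1 was higher in library 0 of the 3 Hodgkin lines, where RMRP and RPPH1 as deposited were higher in library 1. BCYRN1 stood at 1203 and 229 FPKM in library 0 and library 1 of KM-H2, 3614 and 0 FPKM in L1236, and 1267 and 0 FPKM in L428. It stood at 40.5 and 111 FPKM in Namalwa and at 396 and 729 FPKM in Reh, and was listed at 0 in both libraries of Reh_PMA. Library 0 was therefore the higher one in the 3 Hodgkin lines and library 1 in the 2 control lines. The libraries of Reh and of KM-H2 lay above those of Namalwa, while those of L1236 and L428 ran from 0 to above every control library. The values at 0 allow no fold between PMA-treated and untreated Reh.

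The other Pol III RNAs of the table were rarely above 0. Of 47 further rows (U6, Y, vault, snaR, 7SK and 7SL type, transfer and small ribosomal RNAs), 9 were above 0 in any library and 5 passed the filter. The vault RNAs VTRNA1-1, VTRNA1-2 and VTRNA1-3, parts of the vault particle, stood at 581, 619 and 177 FPKM in L1236 library 1 and at 0 in L1236 library 0. VTRNA1-1 was also at 296 FPKM in library 0 of Reh_PMA, and VTRNA2-1 at 492 FPKM in L1236 library 1 and 237 FPKM in L428 library 1. RNU6ATAC was above 0 in all 12 libraries, between 52.2 FPKM in L1236 library 0 and 1953 FPKM in KM-H2 library 1. Of the 5 rows past the filter, limma called 0 after PMA and 0 for Hodgkin lines at an adjusted p under 0.05, beside 31.8 and 0.545% of all rows. At an unadjusted p under 0.05 the counts were 0 and 1, beside 6265 and 1983 of 14679 rows. SNAR-F, SNAR-G2 and VTRNA2-1 were at 0 in all libraries of Reh and Reh_PMA, so the counts after PMA could not include them.

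The first comparison asked how Hodgkin lines differ from B-cell lines that are not of Hodgkin type. On the log2(FPKM + 1) scale the mean of the 3 Hodgkin line means was lower than that of the 2 control lines by 0.34 for RMRP (log2 difference -0.34) and by 0.31 for RPPH1 (-0.31), and higher by 0.56 for TERC. The SD between the libraries of a group was 0.47 for RMRP, 0.55 for RPPH1 and 0.16 for TERC, so the first 2 differences were smaller than the spread between libraries. That spread includes the higher library 1 of RMRP and RPPH1 in each untreated line, and every line mean holds both libraries. Without Namalwa library 1 these 2 differences were -0.068 and -0.023, and without Namalwa library 0 both were -0.60. The line means of RMRP did not overlap (15.53 to 15.99 in Hodgkin lines, 16.01 to 16.20 in control lines), although they did without Namalwa library 1, since library 0 alone was at 15.66, and 17.1% of all rows past the filter had every Hodgkin line below both control lines and 17.9% every Hodgkin line above. The line means of RPPH1 (15.07 to 16.55 against 15.90 to 15.92) and TERC (8.70 to 9.66 against 8.27 to 9.04) overlapped. In whole cell lines, fewer cells with an RNA and less RNA per cell cannot be told apart. In a fit of line means over all rows with limma, 80 of 14679 rows (0.545%) were called at an adjusted p under 0.05.

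Between Hodgkin and control lines limma called 0.545% of all rows, so lists of this size give little to read. It called 0 of 11 RNase P and MRP proteins, 0 of 19 telomerase and H/ACA proteins, 0 of 9 proteins that bind BC200 or snaR, 0 of 18 Pol III subunits and 0 of 22 Pol III initiation factors and regulators. At an unadjusted p under 0.05 the counts were 2, 4, 3, 2 and 2, and over all rows 1983 of 14679. The median log2 differences of these lists were -0.07, -0.08, -0.64, -0.19 and -0.25, against 0.02 for all rows. ILF2, from the list of BC200 and snaR binding proteins, was at -0.94 ± 0.31 (adjusted p = 0.299). SYNCRIP, which binds BC200, was at -1.35 ± 0.33 (adjusted p = 0.202). Among small RNAs, 14 of 58 box C/D rows were called higher in the Hodgkin lines, and all 14 were at 0 in every library 0 of those lines and in the control libraries. Without any 1 of the 6 Hodgkin libraries, 0 of the 58 were called. With library 0 alone standing for each Hodgkin line, those 14 rows are at 0 on both sides by construction, and 5 of all 14679 rows (0.0341%) were called. RMRP was then at -0.61, RPPH1 at -0.70 and TERC at 0.53, in a comparison that drops the Hodgkin library with the higher RMRP and RPPH1 and keeps both libraries of the control lines.

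The second comparison asked what PMA changed in Reh. Before the test across genes, the 3 RNAs that were above 0 throughout differed by 0.25 (RMRP), 0.34 (RPPH1) and 0.53 (TERC) on the log2 scale, PMA-treated minus untreated, or 1.19, 1.27 and 1.45-fold. The RMRP and RPPH1 differences were below the SD between libraries, their libraries overlapped, and the RMRP difference turned to -0.15 after quantile normalization and to -0.11 without Reh library 0. Both PMA-treated libraries lay above both untreated ones for TERC, as they did for 31.8% of all rows past the filter, while 40.1% of rows had both treated libraries below, and without Reh library 1 the TERC difference was 0.32. Fitted with limma over all 12 libraries, PMA called 4675 of 14679 rows (31.8%), 2151 higher (14.7%) and 2524 lower (17.2%). With every library brought to the same sum it called 3028 rows, 1604 higher and 1424 lower.

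TERT, the protein subunit that copies the TERC template, fell after PMA. TERT stood at 22.9 and 12.9 FPKM in library 0 and library 1 of Reh and at 0.892 and 1.15 FPKM in Reh_PMA, with no overlap. Its log2 difference was -3.17 ± 0.31 (SE, limma adjusted p = 0.000133), and it was called in all 10 alternatives tried. TERT was at 6.34 and 6.86 FPKM in Namalwa and at 0 to 1.72 FPKM in the Hodgkin libraries, where the difference from the control lines was -2.99 ± 0.60 and was not called (adjusted p = 0.147). TERC, by contrast, stood at 808 and 717 FPKM in the libraries of Reh_PMA against 611 and 451 FPKM in Reh. Of the 19 proteins of telomerase, H/ACA particles and telomeres, 4 rose and 2 fell, beside 14.7 and 17.2% of all rows, with a median of -0.28 against -0.03 for all rows. TERF2IP (RAP1), a protein of the telomere cap, rose by 1.64 ± 0.20 (adjusted p = 0.000460), and GAR1 and NOP10, core proteins of H/ACA particles, by 1.97 ± 0.53 (adjusted p = 0.0209) and 1.48 ± 0.38 (adjusted p = 0.0180). The TERF2IP call was kept in all 10 alternatives. GAR1 was called in 5 of 10, and not without any 1 of the 4 Reh libraries (limma adjusted p = 0.0554 to 0.127), and NOP10 in 7 of 10, not without library 0 of Reh (0.135) or of Reh_PMA (0.133).

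Of 11 proteins of RNase P and RNase MRP, 1 rose and 2 fell by limma, beside 14.7 and 17.2% of all rows, with a median of -0.36. RPP38, a protein of both particles, stood at 7.42 and 7.91 FPKM in Reh and 20.5 and 18.1 FPKM in Reh_PMA and rose by 1.23 ± 0.19 (log2, SE, adjusted p = 0.00177). RPP25L, a paralogue of the subunit RPP25, stood at 23.0 and 35.4 FPKM in Reh and 13.8 and 14.5 FPKM in Reh_PMA and fell by 0.96 ± 0.27 (adjusted p = 0.0246). RPP25 fell by 1.13 ± 0.38 from a low level (1.37 and 1.63 FPKM in Reh, 0.0599 and 0.227 FPKM in Reh_PMA, adjusted p = 0.0484), and with a pseudocount of 0.1 its log2 difference was -2.80. The RPP38 call was kept in all 10 alternatives. RPP25 was called in 2 of 10: it was lost without any 1 of the 4 Reh libraries (limma adjusted p = 0.119 to 0.206), with the replicate block (0.0552), with libraries of the same sum (0.134), after quantile normalization (0.0945) and without the filter (0.0801). RPP25L was called in 6 of 10, and not without Reh library 1 (log2 difference -0.66, 0.172), Reh_PMA library 0 (0.116) or Reh_PMA library 1 (0.0826). Of 9 proteins that bind BC200 or snaR, SRP14 alone was called, beside 31.8% of all rows. SRP14, which with SRP9 binds the Alu domain of BC200, stood at 38.7 and 48.5 FPKM in Reh and 122 and 96.2 FPKM in Reh_PMA and rose by 1.30 ± 0.32 (adjusted p = 0.0139). Without library 0 of Reh or of Reh_PMA the limma adjusted p of SRP14 was 0.0972 and 0.0980, and with libraries of the same sum 0.0772. SRP9 was at -0.64 ± 0.37 (adjusted p = 0.227).

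Of 18 subunits of Pol III, 2 rose and 2 fell by limma, beside the same 14.7 and 17.2% of all rows. POLR3G, a subunit found in Pol III alone, fell by 1.16 ± 0.30 (log2, SE, adjusted p = 0.0186). POLR3G was called in 5 of 10 alternatives, and not without Reh library 0 (0.0894), Reh library 1 (0.0851) or Reh_PMA library 0 (0.131). POLR2F and POLR2L, small subunits shared by all 3 nuclear polymerases, rose by 1.92 ± 0.30 (adjusted p = 0.00163) and 1.41 ± 0.42 (adjusted p = 0.0308). The POLR2F call was kept in all 10 alternatives, and POLR2L was called in 3 of 10, not without any 1 of the 4 libraries (limma adjusted p = 0.0504 to 0.192). Of 22 initiation factors and regulators, 3 rose and 4 fell, beside the same shares. POU2F1 (OCT1), which binds the upstream element of Pol III promoters of the RMRP and RPPH1 type, stood at 22.7 and 15.8 FPKM in Reh and 3.86 and 5.00 FPKM in Reh_PMA and fell by 1.88 ± 0.22 (adjusted p = 0.000364, kept in all 10). MYC, an activator of Pol III among many genes, fell by 2.14 ± 0.41 (147 and 140 FPKM in Reh, 21.1 and 47.8 FPKM in Reh_PMA; adjusted p = 0.00464, kept in 9 of 10). Of the SNAPc complex, which recognises the same promoters as POU2F1, SNAPC5 fell by 1.16 ± 0.22 (adjusted p = 0.00470), a call lost in a fit of the 4 Reh libraries alone (0.0534). SNAPC1 rose by 1.06 ± 0.24 (adjusted p = 0.0110, lost in 4 of 10 alternatives at 0.0505 to 0.0876), and SNAPC3 by 1.10 ± 0.32 (adjusted p = 0.0299, lost without any 1 of the 4 libraries at 0.0735 to 0.161). RMRP and RPPH1 themselves differed by 0.25 and 0.34 over the same libraries, less than their spread.

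Other non-coding RNAs gave a backdrop for these values in the same fit of PMA against untreated Reh. Of 24 abundant long non-coding RNAs past the filter, 2 rose and 9 fell, beside 14.7 and 17.2% of all rows, with a median of -0.66 against -0.03 for all rows. GAS5, a host gene of box C/D RNAs, stood at 316 and 279 FPKM in Reh and 41.1 and 65.0 FPKM in Reh_PMA and fell by 2.50 ± 0.57 (log2, SE, limma adjusted p = 0.0107), with an adjusted p of 0.0670, 0.0511 and 0.0874 without Reh library 0, Reh library 1 and Reh_PMA library 0. LINC00152 was listed at 0 in Reh and stood at 80.1 and 35.4 FPKM in Reh_PMA, and it was called in both comparisons (adjusted p = 8.48e-06 after PMA and 0.0258 for Hodgkin lines). The call after PMA was kept in all 10 alternatives, and that for Hodgkin lines in 15 of 17, not without the filter (limma adjusted p = 0.121) or with library 0 alone for each Hodgkin line (0.0761). Of 58 box C/D rows 6 rose and 1 fell, of 88 box H/ACA rows 3 rose and 5 fell, and of 22 rows of Cajal body RNAs, 3 rose and none fell, beside the same shares of all rows. Box C/D rows such as SNORD104 and SNORD80 passed the filter through Hodgkin libraries and were at 0 in all Reh and Reh_PMA libraries. They could not be called, so these shares are no like comparison. SNORD95, at 0 in Reh and at 21306 and 16925 FPKM in Reh_PMA, was not called (14.2 ± 6.56, limma adjusted p = 0.132). In a fit of the 4 Reh and Reh_PMA libraries alone, 10 box C/D rows rose and 1 fell, beside 2146 and 2784 of 14679 rows. The 6 box C/D rows that rose were at 0 in both Reh libraries, and 29 to 31 box C/D rows were above 0 in Reh_PMA against 7 to 8 in Reh. Without 1 of the 4 libraries, 1 to 4 box C/D rows rose and 0 fell. SCARNA7, a Cajal body RNA above 0 in all Reh libraries, stood at 572 and 619 FPKM in Reh and at 1512 and 1454 FPKM in Reh_PMA and rose by 1.31 ± 0.36 (limma adjusted p = 0.0238), a call lost without any 1 of the 4 libraries (0.0792 to 0.122). Of 6 Pol II small nuclear RNAs, 1 was called, RNVU1-19, which was listed at 0 in Reh. Of 9 microRNA hairpins, 1 rose after PMA (MIR3648-2) and 1 was lower in the Hodgkin lines (MIR5193), both with libraries at 0. MIR3648-2 was called in 3 of 10 alternatives. MIR5193 was above 0 in library 1 alone of Namalwa and Reh, and was not called without any 1 of the 4 control libraries (limma adjusted p = 0.112 to 0.514), where its log2 difference ran from -7.55 to -2.45.

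The genes whose levels followed those of an RNA most closely were found by Pearson r of log2(FPKM + 1) over the 12 libraries, and again over the 6 group means, as a description among 14679 rows with many r values compared. For RMRP they were MRPL35 (0.91 and 0.91), DPM1 (0.89 and 0.95) and LSM1 (0.89 and 0.88). For RPPH1 they were MRPS35 (0.97 and 0.97), ATG5 (0.95 and 0.95) and CCDC43 (0.93 and 0.95). None of the 3 genes nearest to RMRP was among the 3 nearest to RPPH1. For TERC they were RASSF8 (0.97 and 0.99), TMED7 (0.93 and 0.96) and ITM2C (0.92 and 0.94). For SNAR-G1 they were IL18R1, TES and SH2D1A (0.99 for each over the libraries), but SNAR-G1 was at 0 outside the Hodgkin lines, so these r values hold the split for which it was chosen. For BCYRN1 they were ABALON (0.98 and 0.98), HSD17B1 (0.96 and 0.96) and LOC100996447 (0.96 and 0.95). Over the libraries the 9 pairs of the 5 RNAs other than RMRP with RPPH1 ran from an r of -0.55 (RPPH1 with BCYRN1) to 0.33 (RPPH1 with TERC).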

How the data were processed

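Total RNA was extracted on columns with DNase treatment, and stranded libraries were made with ribosomal RNA removal. Per the labels, the authors aligned reads to hg19 with TopHat2 2.0.11 and deposited 1 table of FPKM values from Cuffnorm 2.2.1. The strand setting of that step and the assignment of reads shared by near-identical copies are not given in the sources used here. Read counts are not part of the table used, so the depth of each library is unknown and no count model, interval or floor is given. Every column was mapped to a group, and 0 columns were left unmapped; the suffixes 0 and 1 could not be tied to the replicate numbers of the labels.

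Differences were taken on log2(FPKM + 1). PMA-treated and untreated Reh were compared with limma 3.58.1 (R 4.3.3, trend, 6 residual degrees of freedom) in a fit of all 12 libraries by group, and Hodgkin with control lines in a limma fit of 5 line means (3 residual degrees of freedom), each over 14679 rows with at least 1 FPKM in at least 2 libraries and Benjamini-Hochberg adjustment, called under 0.05. The limma fits were tested on simulated data. The members and gene lists were chosen with earlier results of these data known. All 5 members were named; of each list at most 4 called genes with the largest difference were named, otherwise genes of high mean; and the 3 genes most like each member by Pearson r. ILF2, SYNCRIP, SRP9, SNAR and VTRNA rows, CGB genes, SCARNA7, SNAPC1, SNORD95 and SNORA73B were named after their values were seen. Alternatives were another pseudocount (0.1), 2 other scalings, no filter, a replicate block, other fits and leaving out each library. Some genes and a sequence are not reported here.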

Additional observations from a re-analysis of the deposited data

Results flagged for a closer look

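BCYRN1 in library 0 of L1236 stood at 3614 FPKM (3613.82), and its gap to the next of the 6 Hodgkin libraries was 0.649 of their range, past a screening limit of 0.625. The other library of the same line was listed at 0. This is a description and no test, since the 6 libraries are pairs from 3 lines and the RNA was chosen with its values known. In all, 9 sets of libraries were looked at this way, and chance alone passes such a limit in about 1 of 20 sets. RPPH1 in library 1 of L428, at 134089 FPKM, stayed just under it (0.616).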

How the results depend on the processing

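Depth is unknown, the libraries number 2 a group, and short RNAs at 0 may be missed, which limits every value of SNAR-G1 and BCYRN1. Bringing each library to the same sum shifted the median of all rows between library 1 and library 0 by -0.41 in KM-H2, -0.25 in L1236, -0.22 in L428, -0.31 in Namalwa and -0.14 in Reh (log2). On that scale library 1 minus library 0 was -0.12, -0.011, 0.50 and 0.11 for RMRP in KM-H2, L1236, Namalwa and Reh_PMA, 0.58 for RPPH1 in Namalwa, -0.40, -0.26, -0.52, -0.50, -0.66 and -0.050 for TERC in KM-H2, L1236, L428, Namalwa, Reh and Reh_PMA, and 0.17 for the box H/ACA median in Namalwa. Quantile normalization gives the same value to the same rank of each library, and so turned or removed differences of the top ranks: -0.97, 0, 0 and 0.29 for RMRP in L428, Namalwa, Reh and Reh_PMA, and -1.60 in both KM-H2 and L1236 and 0 in L428, Namalwa and Reh for RPPH1. TERC, which lies below the top ranks, was at -0.25, -0.24, -0.49 and 0.0096 in KM-H2, L1236, Namalwa and Reh_PMA. A pseudocount of 0.1 moved the box C/D median to 10.77, 11.11 and 12.06 in KM-H2, L1236 and L428.

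For PMA against Reh, quantile normalization gave -0.15 for RMRP and 1.04 for TERC, and for Hodgkin against control lines 0.76 for TERC. Leaving out 1 library at a time gave -0.11 to 0.61 for RMRP, 0.072 to 0.62 for RPPH1 and 0.32 to 0.75 for TERC after PMA, and -0.60 to -0.068, -0.60 to -0.023 and 0.45 to 0.67 between kinds of line. PMA called 3028 rows with libraries of the same sum and 2401 to 3186 with 1 library left out, where the lone library is assumed to vary like the other groups. Hodgkin lines against control lines called 11 rows without the filter (of 21217 tested), 8126 in a fit of libraries in place of line means, 5 with library 0 alone for each Hodgkin line (chosen after seeing the data), and 27 to 88 with 1 library left out. Of the 33 genes that the rule names after PMA, 9 were called in all 10 alternatives, and of 6 named between kinds of line none was called in all 17; none of them changed direction. The causes were not tested.

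Labels number the replicates of each group, and the table numbers libraries 0 and 1, and libraries of the same number deviated together in 6 of 15 pairs of groups (correlation over 0.1, range -0.045 to 0.68). The 3 pairs among the Hodgkin lines correlated at 0.30 to 0.68 and Namalwa with Reh at 0.36, whereas Reh with Reh_PMA was at -0.0088. Since not every pair was over 0.1, the numbers were not taken to pair the samples. This rule cannot tell whether some of the groups, such as the Hodgkin lines, shared a batch, which was not tested. With that number as a replicate block, PMA called 5115 rows and the library fit of Hodgkin against control lines 8423. The differences of RMRP, RPPH1 and TERC cannot move under this block, since each group holds 1 library of each number.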
